A study of Mus musculus with 8 samples.

Results

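The 45 genes described here encode heat shock proteins and the chaperones that work with them in the cytosol and mitochondria, together with the heat shock factors Hsf1 and Hsf2. They are picked out by gene symbol, and all 45 were found among the 19382 genes listed in either of 2 expression tables, one for activated hepatic stellate cells (HSCs) and one for bone marrow-derived macrophages (BMDM). HSCs are the collagen-producing cells of the liver. RNA was sequenced from primary C57BL/6 mouse HSCs given vehicle or 0.03 µM auranofin, an oral gold compound used in rheumatoid arthritis, for 12 h, and from C57BL/6 BMDM given vehicle or auranofin for 1 h. All 4 BMDM libraries, vehicle included, were from cells primed with 100 ng/mL LPS for 4 h and then given 1 mM ATP. The auranofin concentration of the BMDM is 0.1 µM by the sample labels and 0.3 µM by the study's figure legend. The BMDM had been differentiated for 7 days with M-CSF from marrow of 8-week-old mice, and the HSCs came from a density gradient of liver non-parenchymal cells and had been activated in culture; no age is stated for their donors. Each of the 4 groups had 2 libraries. Nothing in the labels says that these are separate cultures or animals, so the p-values below measure only the spread between these libraries.

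Heat shock proteins bind unfolded proteins. Hsp70 and Hsp90 use ATP to fold clients with the help of J proteins, nucleotide exchange factors and cochaperones, small heat shock proteins hold unfolded proteins without ATP, and the TRiC ring folds actin and tubulin. When unfolded or oxidised proteins accumulate, heat shock factor 1 (HSF1) is released from chaperones, binds repeated GAA and TTC units in promoters, and switches on the inducible members within minutes to hours, while constitutive members such as Hspa8 and Hsp90ab1 are abundant in unstressed cells.

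The clearest example of an inducible pair is Hspa1a and Hspa1b, the neighbouring genes of stress-inducible Hsp70 on chromosome 17. Their annotated spans lie 10120 bases apart, and 546 bases separate Hspa1a from Hspa1l, which is read in the opposite direction. The 250 bases before each RefSeq start site are shown because the largest differences reported below are those of these 2 genes. Capitals mark a pair of heat shock units, 104 to 97 bases before the start (build GRCm38.p6, minus strand, chr17:34972157-34972406 for Hspa1a and chr17:34959239-34959488 for Hspa1b).
Hspa1a: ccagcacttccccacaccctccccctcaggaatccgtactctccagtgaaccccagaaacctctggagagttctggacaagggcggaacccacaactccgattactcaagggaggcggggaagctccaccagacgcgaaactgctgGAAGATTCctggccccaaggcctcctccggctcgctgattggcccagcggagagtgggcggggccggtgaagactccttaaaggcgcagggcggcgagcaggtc
Hspa1b: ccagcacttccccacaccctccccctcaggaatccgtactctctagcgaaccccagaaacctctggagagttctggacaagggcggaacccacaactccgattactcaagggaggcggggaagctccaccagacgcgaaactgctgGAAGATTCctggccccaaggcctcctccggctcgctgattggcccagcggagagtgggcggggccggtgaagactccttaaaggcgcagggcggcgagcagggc
The 2 stretches were identical at 247 of 250 bases (98.8%), and the coding sequences at 1915 of 1926 aligned bases (99.4%). Reads from one gene can therefore be assigned to the other, and only the sum of the 2 levels is certain.

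Levels were deposited as FPKM, fragments scaled to transcript length and library size, which allows genes of different lengths to be compared within a table. The 2 tables were normalized separately. Differences are on the log2(FPKM + 1) scale, which understates changes at low levels, and only genes whose 4 libraries averaged 1 FPKM or more were tested. This left 44 of the 45 genes among 12149 tested in HSCs and 41 among 9232 in BMDM. Estimated depth was 29800000 to 39300000 fragments per HSC library and 27500000 to 35000000 per BMDM library. In the HSC libraries all 10 stellate cell markers and all 10 macrophage markers had a mean of at least 1 FPKM. The macrophage markers summed to between 6957 and 7075 FPKM there, against 2491 to 3008 FPKM for the stellate cell markers, and the latter sum was 2877 and 3008 FPKM in the vehicle libraries, then 2491 and 2583 FPKM. Single genes carried much of these sums. Lyz2 alone gave 5519 and 5554 FPKM with vehicle, then 5379 and 5440 FPKM. Acta2, a stellate cell marker, gave 956 and 965 FPKM, then 743 and 737 FPKM, whereas Reln of the same list gave 3.32 and 3.73 FPKM, then 3.75 and 3.85 FPKM. The 6 endothelial markers summed to 178 to 190 FPKM and the hepatocyte markers to under 2 FPKM. The neutrophil and lymphocyte markers stood at 68.6 FPKM in auranofin replicate 2 of the HSCs and at 6.22 to 17.6 FPKM in the other libraries. BMDM had 9 of 10 macrophage markers at or above 1 FPKM, 6923 to 7792 FPKM in sum, and stellate cell markers at 3.65 to 6.31 FPKM. The part of these cells in the chaperone levels was not tested, and in bulk RNA fewer cells of a type cannot be told apart from less RNA per cell.

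With vehicle, Hspa8, the constitutive cytosolic Hsp70, and Hsp90ab1, the constitutive Hsp90, were the 2 most abundant of the 45 genes in both cell types. Hspa8 stood at 986 and 983 FPKM in the HSC vehicle libraries and at 336 and 342 FPKM in those of BMDM. Hsp90ab1 stood at 682 and 662 FPKM and at 234 and 238 FPKM, respectively. The inducible genes were far lower in both: Hspa1a and Hspa1b together gave 24.6 and 26.8 FPKM in HSCs and 5.82 and 7.62 FPKM in BMDM.

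Several members were far higher in HSCs than in BMDM, where their vehicle means were below 1 FPKM. All 4 small heat shock proteins were among them. Cryab (αB-crystallin) had a vehicle mean of 220.1 FPKM in HSCs and 0.184 FPKM in BMDM. Hspb1 (Hsp25, an actin-associated small heat shock protein) had 129 and 0.998 FPKM. For Hspb8, a partner of Bag3 in selective autophagy, the vehicle means were 39.4 and 0.0299 FPKM. The fourth, Hspb6, had 13.3 and 0.906 FPKM. Bag2, a nucleotide exchange factor and CHIP inhibitor, and Dnaja4, a J protein, were near 0 in BMDM, at 0.0585 and 0.0409 FPKM. Their vehicle means in HSCs were 19.0 and 5.21 FPKM. The order was the other way for Ahsa1, the activator of the Hsp90 ATPase, with 96.8 FPKM in HSCs and 202 FPKM in BMDM. These gaps are given side by side without a test, since cell type, treatment and normalization differ together.

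**Figure D1:**
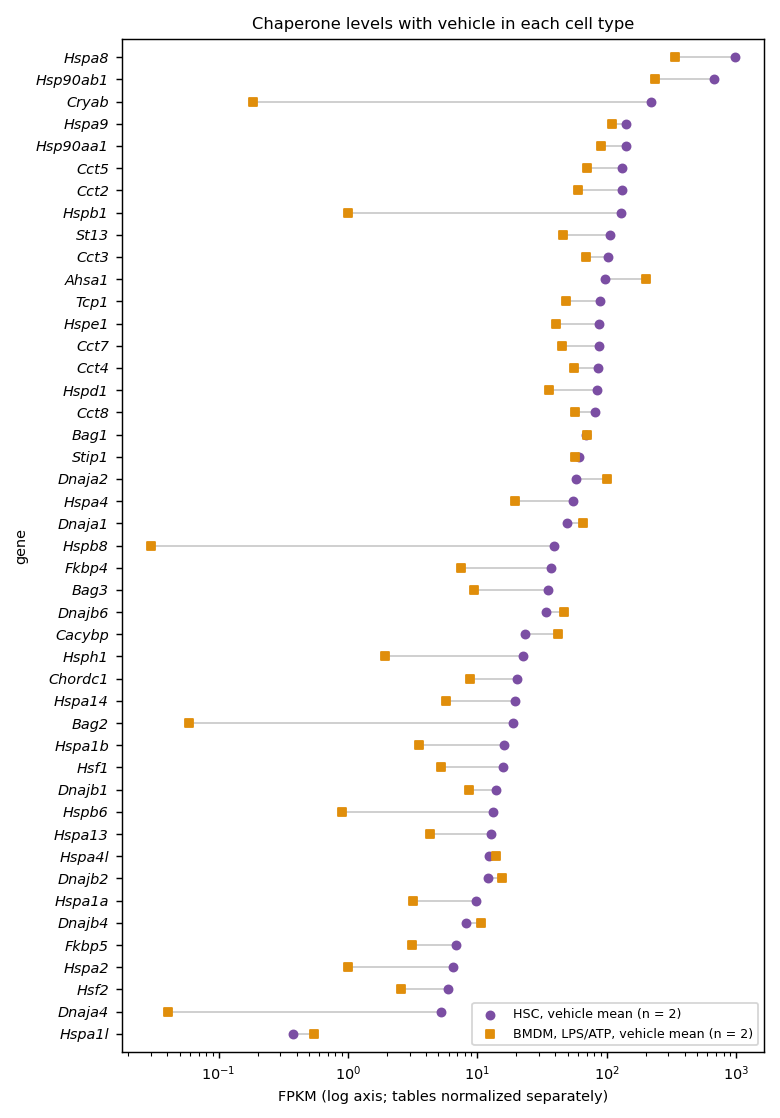
FPKM (log axis) of each of the 45 genes with vehicle, as the mean of 2 libraries per cell type; circles are HSCs, squares are LPS/ATP-treated BMDM, and lines join the values of a gene. Cryab, Hspb8, Hspb1, Bag2 and Dnaja4 lie far to the left in BMDM, while Hspa8 and Hsp90ab1 lead in both cell types.

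In BMDM the first question was whether auranofin changed chaperone transcripts within 1 h. The 2 auranofin libraries gave different answers, so each is given by itself. The labels give both the same treatment, and replicate 2 lay close to the vehicle libraries. Whether the cells of the 2 libraries were exposed alike was not tested. In auranofin replicate 1, 11 of the 41 tested chaperone genes lay at least 2-fold above the vehicle mean, against 5.22% of all genes tested. Of the 41, 0 lay at least 2-fold below the vehicle mean (2.62% of all genes). The filter used the mean over all libraries, so any gene high in replicate 1 alone could enter the test through that library. Of the 11, Hspa1l and Hspb1 had vehicle means below 1 FPKM (0.547 and 0.998 FPKM). In auranofin replicate 2, 0 of 41 lay at least 2-fold above (0.13% of all genes). The median difference of the 41 genes from the vehicle mean was 0.62 in replicate 1 and 0.04 in replicate 2, where the medians of all genes were 0.18 and 0.00. After subtraction of that shift of 0.18, the same 11 genes were still at least 2-fold above the vehicle mean (3.77% of all genes), and 35 of 41 lay above 0, where the centring puts 50% of all genes. The 2 auranofin libraries had similar estimated depths (35000000 and 34500000 fragments), and their macrophage markers summed to 7792 and 7040 FPKM, beside 7097 and 6923 FPKM with vehicle. Within that list the markers went both ways in replicate 1. Cd14 gave 465 and 477 FPKM with vehicle and 739 FPKM in replicate 1, whereas Fcgr1 gave 338 and 331 FPKM, then 183 FPKM, and Mertk 27.6 and 28.8 FPKM, then 14.5 FPKM. The endothelial markers summed to 13.6 and 13.3 FPKM with vehicle, 6.35 FPKM in replicate 1 and 11.8 FPKM in replicate 2. Only 1 of these 6 markers had a mean of at least 1 FPKM. Kdr made most of that sum, at 12.3 FPKM in vehicle replicate 1, 5.16 FPKM in auranofin replicate 1 and 10.6 FPKM in replicate 2. Stab2 of the same list went the other way in replicate 1, at 0.486 and 0.489 FPKM with vehicle, then 0.687 FPKM. The neutrophil and lymphocyte markers summed to 158 and 166 FPKM with vehicle, then 219 and 222 FPKM. The part of these differences in the chaperone values was not tested.

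Hspa1a stood at 2.83 and 3.54 FPKM with vehicle, 799.7 FPKM in auranofin replicate 1 and 3.25 FPKM in replicate 2. The value of replicate 1 was 251-fold above the vehicle mean, a log2 difference of 7.59, which was the largest of all 9232 genes in that library. Hspa1b, with 3.0 and 4.08 FPKM with vehicle, 719 FPKM in replicate 1 and 3.50 FPKM in replicate 2, came next in that order with a log2 difference of 7.32. For both genes replicate 2 lay between the 2 vehicle libraries. Since reads of the pair can be exchanged, the certain value is their sum, which was 5.82 and 7.62 FPKM with vehicle, 1518 FPKM in replicate 1 and 6.76 FPKM in replicate 2. By the estimated depth the Hspa1a value of replicate 1 stands for about 83045 fragments, beside 248 and 289 in the vehicle libraries and 333 in replicate 2. Hspa1a and Hspa1b together reached 0.937 of the Hspa8 level in replicate 1, and 0.0174 to 0.0223 of it in the other 3 libraries.

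Hspa1l, the third gene of the cluster and best known from testis, gave 0.552 and 0.542 FPKM with vehicle, 15.1 FPKM in replicate 1 and 0.458 FPKM in replicate 2. Its coding sequence was identical to that of Hspa1a at 82.9% of aligned positions. Its vehicle level was below 1 FPKM, so it entered the test through replicate 1 alone. Hspb1, Hspb6 and Hspa2 also had vehicle means below 1 FPKM, and Hspb6 was above 1 FPKM in replicate 2 alone (1.48 FPKM). Hsph1 (Hsp105), an Hsp110 protein that exchanges nucleotide on Hsp70, gave 1.92 and 1.94 FPKM with vehicle, 42.6 FPKM in replicate 1 and 2.13 FPKM in replicate 2. At 22.1-fold, this was the largest ratio after those of the 3 genes of the Hspa1 cluster among the 41 genes. Hspa8, the most abundant member, stood above the other libraries in replicate 1 too, with 336 and 342 FPKM, then 1621 FPKM in replicate 1 and 352 FPKM in replicate 2.

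**Figure D2:**
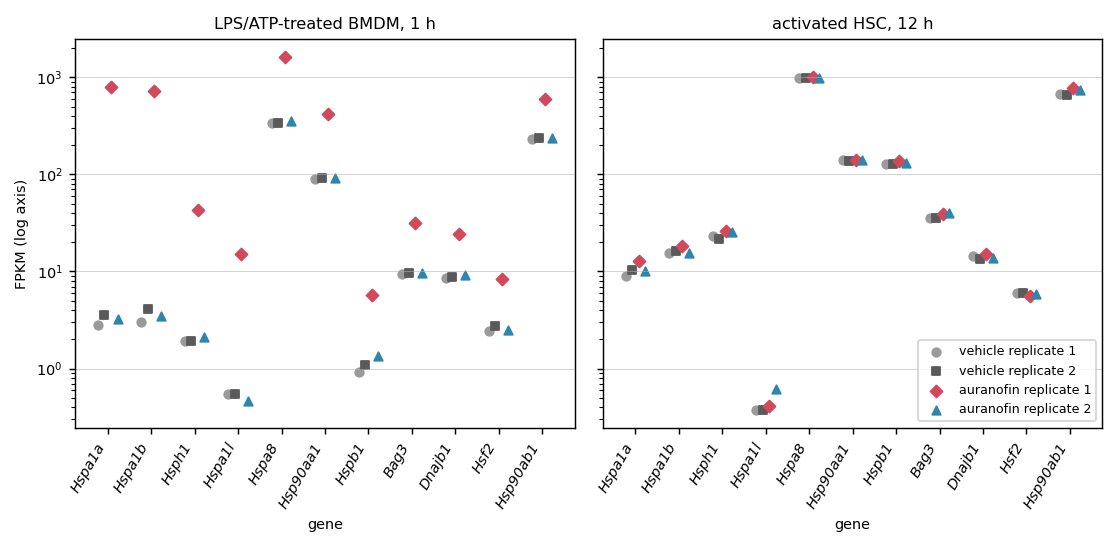
FPKM (log axis) in each library of the 11 genes at least 2-fold above the vehicle mean in BMDM auranofin replicate 1, ordered by that difference; left, LPS/ATP-treated BMDM, right, HSCs. In BMDM, replicate 1 (diamonds) stands apart from the other 3 libraries in each of the 11 genes, from 799.7 FPKM in Hspa1a to 5.68 FPKM in Hspb1, while in HSCs the 4 libraries lie close together.

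The cytosolic Hsp90 genes differed by unequal amounts in replicate 1. Hsp90aa1, the inducible form, gave 89.4 and 92.4 FPKM with vehicle, 415 FPKM in replicate 1 and 92.0 FPKM in replicate 2. Hsp90ab1 gave 234 and 238 FPKM, then 593 FPKM in replicate 1 and 238 FPKM in replicate 2. The ratio of Hsp90aa1 to Hsp90ab1 was 0.382 and 0.388 with vehicle, 0.699 in replicate 1 and 0.386 in replicate 2.

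Among the partners, Bag3, the HSF1-inducible BAG protein that links Hsp70 to small heat shock proteins, gave 9.33 and 9.57 FPKM with vehicle, 31.9 FPKM in replicate 1 and 9.73 FPKM in replicate 2. Dnajb1 (Hsp40), which delivers clients to Hsp70, gave 8.54 and 8.74 FPKM, then 24.3 and 9.10 FPKM. Hspb1 gave 0.910 and 1.09 FPKM, then 5.68 and 1.36 FPKM. Of these 3 genes, each was higher than both vehicle libraries in both auranofin libraries, but in replicate 2 by no more than 0.24 on the log2 scale. Hsf2, a heat shock factor that can pair with HSF1, gave 2.41 and 2.75 FPKM with vehicle, 8.39 FPKM in replicate 1 and 2.51 FPKM in replicate 2. Hsf1 itself gave 4.93 and 5.50 FPKM, then 7.55 and 6.03 FPKM.

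The other members tested lay below 2-fold in replicate 1 on the log2(FPKM + 1) scale. The plain FPKM ratios of Hspa2 and Hspa13, both low in the vehicle libraries, were nevertheless 2.46 and 2.21. A pseudocount of 0.1 in place of 1 put 13 of the 41 genes past 2-fold, and the share of all genes at that setting was not computed. Hspa13 (log2 difference 0.99), a microsomal Hsp70, Hspa9 (0.92), the mitochondrial Hsp70, and Dnaja1 (0.78), a J protein, were examples of 3 kinds. In all, 22 of the 41 genes were at least 1.5-fold above the vehicle mean in replicate 1 (15.2% of all genes), 10 of them among the 11 Hsp70 and Hsp110 genes, and 40 of 41 lay above both vehicle libraries (64% of all genes). Hspd1 and Hspe1, which form the mitochondrial chaperonin, differed by 0.69 and 0.55. The 7 TRiC genes differed by 0.07 (Cct5) to 0.47 (Cct8), and 0 of them reached 1.5-fold. The cochaperones ran from 0.07 (Stip1) to 0.78 (Chordc1). Of the small differences, those of Stip1, Cct5, Bag1, Fkbp5, Dnaja2 and Hspb6 were below the 0.18 of the median gene and became negative after centring. In replicate 2, 0 of 41 reached 1.5-fold (0.379% of all genes) and 23 lay above both vehicle libraries (37.6% of all genes). Another 6 lay below both, and the share of all genes below both was not computed.

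**Figure D3:**
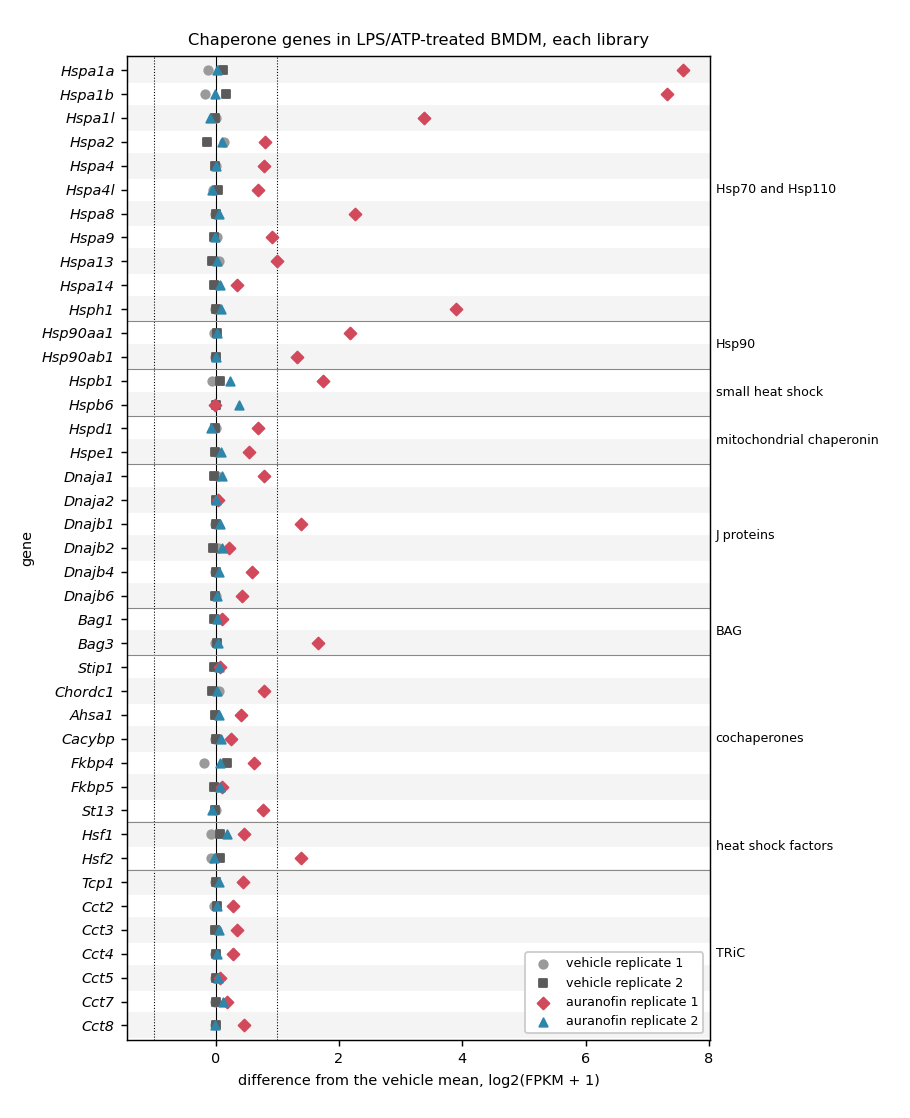
Difference of each BMDM library from the vehicle mean on the log2(FPKM + 1) scale for the 41 tested genes, grouped by role; dotted lines mark 2-fold. Auranofin replicate 1 (diamonds) is displaced to the right, up to 7.59 in Hspa1a, whereas replicate 2 (triangles) stays within 0.38 of the vehicle mean.

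With both auranofin libraries in the group, no chaperone gene passed a threshold in BMDM. With limma, 0 of 41 reached 1.5-fold with an unadjusted p under 0.05 (0.152% of all genes), 0 reached a Benjamini-Hochberg adjusted p under 0.05 (0.0108% of all genes) and 0 an unadjusted p under 0.05 (0.531% of all genes). For Hspa1a the estimated log2 fold change, 3.81, had a standard error of 2.68 and a 95% interval from -3.62 to 11.24 (adjusted p = 0.721, limma). The 41 genes had a median log2 fold change of 0.32, beside 0.09 over all genes. Both auranofin libraries lay above both vehicle libraries in 22 genes (26.3% of all genes) and below them in 0 (12.6%). The result turned on which library was left out. Without auranofin replicate 2, 22 of 41 genes passed 1.5-fold with an unadjusted p under 0.05 and 35 an adjusted p under 0.05, where 2122 and 5997 of all 9232 genes did. That fit has 1 auranofin library, so the spread comes from the 2 vehicle libraries and the lone library is assumed to vary as they do. Without auranofin replicate 1, 0 passed either, and the median was 0.04. For a single gene, the smallest two-sided p of an exact permutation test in this design is 0.333.

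The share of the library taken by chaperone transcripts followed the same split. The 45 genes made up 0.427% and 0.432% of the summed FPKM of the BMDM vehicle libraries, 1.25% in auranofin replicate 1 and 0.43% in replicate 2. Hsp70 and Hsp110 genes accounted for 0.106% and 0.108% with vehicle, 0.717% in replicate 1 and 0.107% in replicate 2. Hsp90 genes went from 0.0688% and 0.0707% to 0.208% and 0.0687%, and TRiC genes from 0.0856% and 0.0872% to 0.103% and 0.0869%. In HSCs the 45 genes made up 0.951% and 0.929% with vehicle and 0.973% and 0.955% with auranofin.

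**Figure D4:**
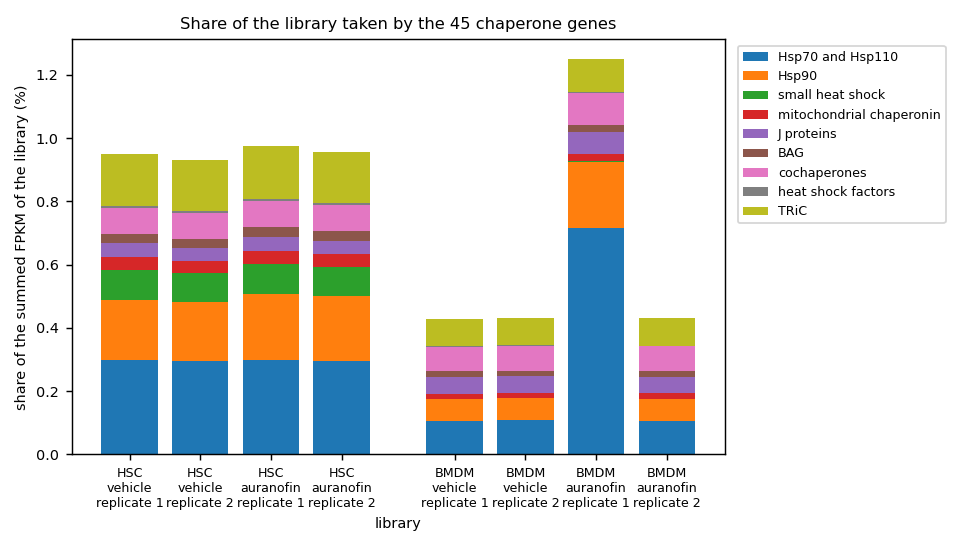
Share of each library's summed FPKM taken by the 45 genes (%), stacked by role, for the 4 HSC and 4 BMDM libraries. The bar of BMDM auranofin replicate 1 reaches 1.25%, most of it Hsp70 and Hsp110 genes at 0.717%, while the other BMDM bars end between 0.427% and 0.432%.

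In HSCs, exposed for 12 h to 0.03 µM, the same genes stayed close to their vehicle levels. Of 44 tested genes, 0 reached 1.5-fold with an unadjusted p under 0.05 (0.576% of all genes), and their median log2 fold change was 0.04 (0.00 over all genes). Hspa1a gave 9.06 and 10.3 FPKM with vehicle, then 12.7 and 10.2 FPKM, and its groups overlapped. Hspa1b gave 15.5 and 16.4 FPKM, then 18.4 and 15.5 FPKM. For Hspa1a the 95% interval of the log2 fold change ran from -0.06 to 0.48, and for Hspa8 from -0.07 to 0.09, both within 1.5-fold. Dnajb4, a J protein related to Dnajb1, had the largest estimate, 0.53 with a 95% interval from -0.17 to 1.22. Its vehicle libraries gave 9.02 and 7.26 FPKM and its auranofin libraries 16.9 and 8.57 FPKM, with replicate 1 alone high (adjusted p = 0.398, limma). It passed 1.5-fold with an unadjusted p under 0.05 when vehicle replicate 1 or auranofin replicate 2 was left out, and in the latter case also an adjusted p under 0.05. Either fit leaves 1 library in a group, whose spread is taken from the other group, and without auranofin replicate 2 the library kept is the high one. In auranofin replicate 1, 0 of the 44 genes lay at least 2-fold above the vehicle mean (0.214% of all genes).

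One HSC gene, Hspb8, passed an adjusted p under 0.05 (2.33% of all genes did), and it is named because it was the only one. Hspb8 rose from 39.4 and 39.3 FPKM with vehicle to 48.6 and 47.6 FPKM with auranofin, a log2 fold change of 0.28 with a standard error of 0.0348 (adjusted p = 0.0217, limma). When auranofin replicate 1 was left out the adjusted p in limma became 0.0913, and it became 0.0572 without replicate 2. It was 0.0608 without the filter on low values, 0.0716 without the variance trend and 0.281 without moderation, so the call rests on these settings too. Bag3, its partner, gave 35.5 and 35.2 FPKM with vehicle, then 39.5 and 39.7 FPKM, and Hsp90ab1 gave 682 and 662 FPKM, then 776 and 745 FPKM. Their groups did not overlap, but their adjusted p-values in limma were 0.0864 and 0.0779. With the replicate number as a block, Hsp90ab1 had an adjusted p of 0.0445 in limma. At an unadjusted p under 0.05 there were 6 genes (17.8% of all genes): these 3, Hsph1 and Cacybp, a binding partner of Hsp90 and of ubiquitin ligases, were higher, and Hspb6, a small heat shock protein of smooth muscle, was lower. Hspb6 gave 13.6 and 13.0 FPKM with vehicle, then 11.9 and 11.4 FPKM (adjusted p = 0.148, limma). The auranofin libraries lay above both vehicle libraries in 15 genes (26.2% of all genes) and below both in 6 (23.9%).

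**Figure D5:**
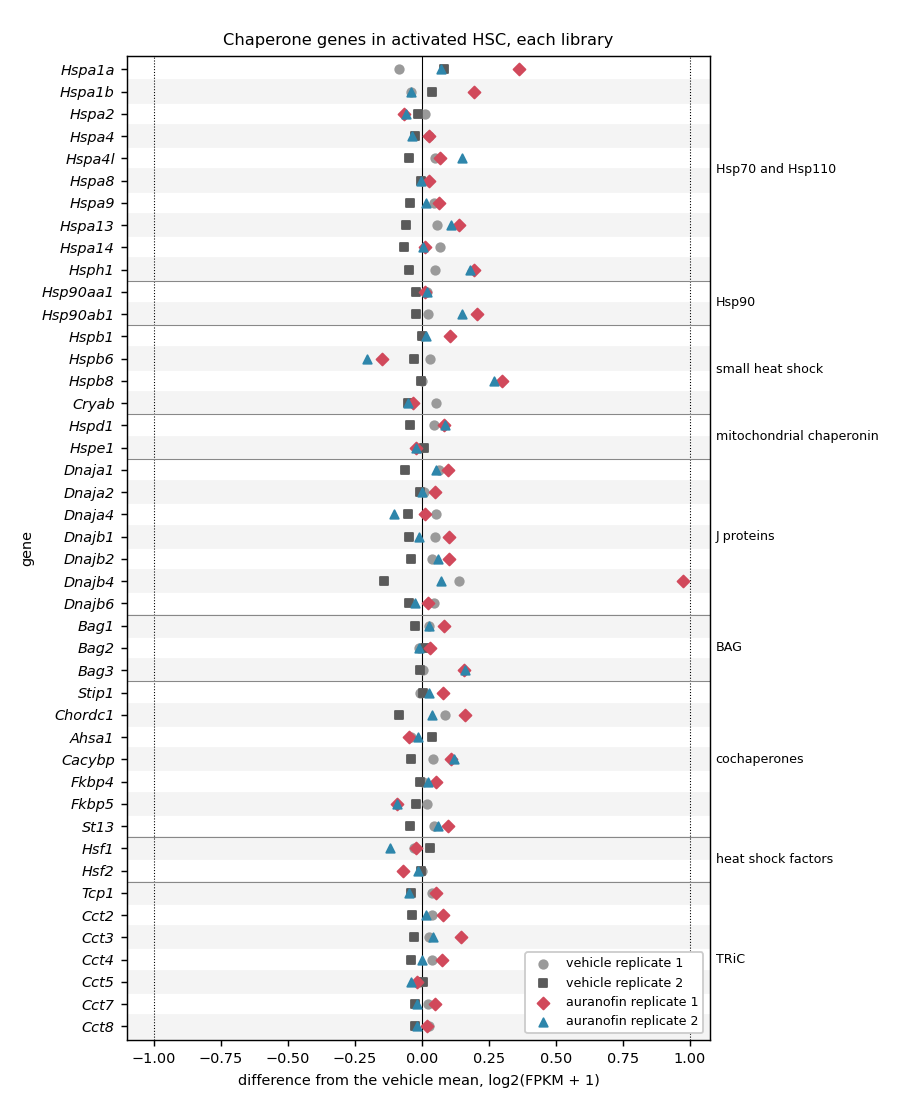
Difference of each HSC library from the vehicle mean on the log2(FPKM + 1) scale for the 44 tested genes, grouped by role; dotted lines mark 2-fold. All points lie inside the dotted lines, with Dnajb4 in auranofin replicate 1 the farthest at 0.98, and the auranofin libraries of Hspb8 (0.30 and 0.27) clear of the vehicle libraries.

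The promoter windows of RefSeq, 250 bases before to 50 bases after each start, were searched for heat shock units on both strands. A window was found for 36 of the 45 genes. A run of 3 alternating units with 2 bases between units (GAANNTTCNNGAA or TTCNNGAANNTTC) was present in 5 of the 36 (13.9%), against 179 of 27025 genes (0.662%) with a window. A run of 2 units (GAANNTTC or TTCNNGAA), which every longer run contains, was present in 17 of the 36 (47.2%), against 17.0% of genes. The 3-unit runs were in Hspd1, Hspe1, Dnajb6, Hsph1 and Chordc1. Up to 30 bases around a match are shown for 4 of them and for Hspb1 and Bag3, with the matching letters in capitals (GRCm38.p6, strand of the gene).
Hspe1 (chr1:55088053-55088082, plus strand): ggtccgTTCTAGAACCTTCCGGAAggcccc
Dnajb6 (chr5:29735844-29735873, plus strand): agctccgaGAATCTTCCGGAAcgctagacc
Hsph1 (chr5:149636287-149636316, minus strand): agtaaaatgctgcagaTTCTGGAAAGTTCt
Chordc1 (chr9:18292260-18292289, plus strand): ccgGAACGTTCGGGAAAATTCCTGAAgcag
Hspb1 (chr5:135887791-135887820, plus strand): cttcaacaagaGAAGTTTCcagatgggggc
Bag3 (chr7:128523603-128523632, plus strand): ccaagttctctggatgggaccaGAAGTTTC
The Hspe1 run lies 89 to 72 bases before its start and is shared with Hspd1, which is read in the opposite direction and whose annotated span overlaps that of Hspe1, so these 2 genes are not independent entries. The Hsph1 and Bag3 matches shown lie after the start, and the Chordc1 matches shown reach across it. Hsph1 has a further pair of units before its start.

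Genes with and without such runs overlapped in their difference in BMDM auranofin replicate 1. The 5 tested genes with 3 units differed by 0.43 to 3.90 with a median of 0.69, the 10 with 2 units by -0.01 (Hspb6) to 7.59 with a median of 0.70, and the 18 with no match by 0.03 to 3.38 with a median of 0.38. Hspa1l, Dnajb1 and Hsf2, all at least 2-fold above the vehicle mean in that library, were among those with no match in the window. Hspa8, Hsp90aa1 and Hsp90ab1, also at least 2-fold above the vehicle mean there, had no window and so are in none of these groups. These counts describe letters in a window and were not tested.

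A separate list held 48 other chaperone genes, among them genes of the endoplasmic reticulum, mitochondria, prefoldin and further cochaperones. It also held small heat shock proteins such as Hspb2, the heat shock factors Hsf4 and Hsf5, Hspa12a, Hspa12b and the TRiC subunit Cct6a. The list therefore does not set cytosolic chaperones against those of other compartments. In BMDM auranofin replicate 1, 2 of the 38 tested lay at least 2-fold above the vehicle mean, where 5.22% of all genes did, and 1 after centring. The median difference of the 38 was 0.22, near the 0.18 of all genes. Dnajb9 (ERdj4), a J protein of the endoplasmic reticulum, gave 4.62 and 5.30 FPKM with vehicle, 23.9 FPKM in replicate 1 and 4.85 FPKM in replicate 2. Ptges3 (p23), a cochaperone that stabilises client-bound Hsp90, gave 36.8 and 36.6 FPKM, then 81.3 and 39.1 FPKM. In replicate 2, 0 of the 38 reached 2-fold. With limma 0 of the list passed 1.5-fold with an unadjusted p under 0.05, or an adjusted p under 0.05, in either cell type. In BMDM 0 of the 38 reached an unadjusted p under 0.05 either. In HSCs 5 of the 45 tested were higher and 3 lower at an unadjusted p under 0.05 (17.8% of all genes in either direction), among them Hspb2, the neighbour of Cryab, at 17.5 and 17.5 FPKM with vehicle, then 12.5 and 14.4 FPKM (adjusted p = 0.0646, limma).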

How the data were processed

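RNA of 8 libraries (4 groups of 2) was sequenced after poly(A) selection with a stranded kit. The authors deposited 1 table of FPKM per gene for each cell type, using RefSeq transcripts and build mm10. The submitters' processing notes name CASAVA, FastQC 0.11.7, Trimmomatic 0.38, HISAT2 2.1.0 and StringTie 1.3.4d. No counts were used. Depth was estimated from the steps of 1 fragment in values under 0.2 FPKM, and covers counting error only.

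From the deposited FPKM, log2(FPKM + 1) was computed, genes averaging 1 FPKM or more were kept, and limma 3.58.1 (lmFit, eBayes with trend, R 4.3.3) compared auranofin with vehicle in each table alone, two-sided, with Benjamini-Hochberg adjustment over all genes tested. The fit was tested on simulated data. Each auranofin library was also set against the mean of the vehicle libraries, without a test. Thresholds were 1.5-fold and p under 0.05. Coordinates, promoters and sequences are from RefSeq on GRCm38.p6, and depth and coding sequences used GENCODE transcripts. Genes given with every library passed the thresholds or lay at least 2-fold from the vehicle mean in a BMDM auranofin library. Others are examples of a role, at most 3 per role. In addition, Hspb8, Hspa1a, Hspa1b, Bag3, Hsp90ab1, Dnajb4 and Hspb6 in HSCs, Hsf1 in BMDM and Hspb2 were chosen after their values were seen. The genes, roles and lists were chosen with earlier results of these data known. Alternatives were another pseudocount (0.1), other filters (none, or 5 FPKM), centring, quantile normalization, no trend, no moderation, a replicate block and each library left out. Analyses used pandas 2.3.3, numpy 2.4.6 and scipy 1.17.1 under Python 3.11.15, with matplotlib 3.10.9 for the plots.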

Additional observations from a re-analysis of the deposited data

Results flagged for a closer look

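In 3 genes both auranofin libraries lay above both vehicle libraries in BMDM and below both in HSCs. Over all genes tested, 26.3% lay above both in BMDM and 23.9% below both in HSCs, and the share doing both was not computed. This contrast between the cell types was not tested, because the tables were normalized separately and dose and time differ. The log2 fold change of Hspe1, the lid of the mitochondrial chaperonin, was -0.02 in HSCs and 0.32 in BMDM. For Fkbp5, an immunophilin cochaperone of Hsp90, it was -0.09 in HSCs and 0.09 in BMDM. For Cct5, a TRiC subunit, it was -0.03 in HSCs and 0.06 in BMDM. In BMDM auranofin replicate 1 the differences of Fkbp5 and Cct5 were smaller than that of the median gene.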

How the results depend on the processing

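With 2 libraries per group the tests rest on a small spread estimate. The cause of the changes below was not tested. In HSCs the number of chaperone genes past an adjusted p under 0.05, 1 in the report, was 0 without the filter on low values, 0 without the trend, 0 without moderation and 2 with the replicate number as a block, with Hspb8 at adjusted p-values of 0.0608, 0.0716 and 0.281 in limma under the first 3. Over all genes tested the number was 283 in the report, then 49, 129, 0 and 282 in the same order. Without moderation no gene of any kind passed, so the 0 there does not single out the chaperone genes. Leaving out 1 library in turn gave 0 to 1 by that rule, with 0 when auranofin replicate 1 was left out, and 0 to 1 past 1.5-fold with an unadjusted p under 0.05. The number at least 2-fold above the vehicle mean in HSC auranofin replicate 1 was 0 (0.214% of all genes), 1 with a pseudocount of 0.1, and 0 to 1 with a vehicle library left out. The share of all genes was not computed for those other settings.

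In BMDM, leaving out 1 library gave 0 to 22 genes past 1.5-fold with an unadjusted p under 0.05, 0 to 35 past an adjusted p under 0.05, and a median log2 fold change of 0.04 to 0.62, the highest values without auranofin replicate 2. Without auranofin replicate 1 the log2 fold change was 0 for Hspa1b, -0.09 for Hspa1l and -0.03 for Hsf2, each no longer positive, against 7.32, 3.38 and 1.39 without replicate 2. The median difference of the members in replicate 1, 0.62, was 0.68 with a pseudocount of 0.1, 0.55 without the filter, 0.59 with a mean of at least 5 FPKM, 0.42 after centring, 0.54 after quantile normalization and 0.58 to 0.66 with a vehicle library left out. Same-numbered libraries deviated together little (correlation 0.109 over 12149 genes in HSCs, -0.0551 over 9232 in BMDM), so the numbers were not taken as pairs. The block left 0 BMDM chaperone genes past either threshold.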
